A study of Mus musculus with 12 samples.

Results

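The CHD genes encode the chromodomain helicase DNA-binding proteins, and their transcripts were examined here for m1A, a methylated adenosine of RNA, in the caudate putamen of the mouse. The 9 genes Chd1 to Chd9 were taken by name, and a peak was counted for a gene when its summit lay within the gene's RefSeq span on GRCm38. All 9 genes held at least 1 peak, and together they held 54 peaks that merged into 31 regions of the 13572 found in the whole series. These counts lean on 1 deep knockout library, KO 2, without which 7 genes, 32 peaks and 15 regions remained. Of all protein-coding genes, 26.2% held a peak in any library, and 22.1% did without KO 2. The CHD genes are long, with a median span of 67.6 kb against 17.1 kb for all protein-coding genes. The part of span length in these counts was not tested.

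CHD proteins use ATP to move or evict nucleosomes, and each carries a pair of chromodomains beside a helicase-like motor. Chd1 and Chd2 act mainly in transcribed chromatin. Chd3, Chd4 and Chd5 are alternative motors of the NuRD complex, which joins nucleosome remodelling to histone deacetylation, and Chd5 is the form typical of neurons. Chd6, Chd7, Chd8 and Chd9 make up the remaining subfamily. In humans, mutations of CHD7 cause CHARGE syndrome, those of CHD8 are linked to autism, and those of CHD2 to childhood epilepsy.

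All animals were adult males with the floxed allele Tet1 fl/fl, which Cre can cut. Controls received AAV-EGFP in the caudate putamen, and knockout (KO) mice received AAV-Cre-EGFP there, giving the genotype labelled Tet1 delta/delta; the region was collected 2 weeks later. Thus the floxed allele, a viral injection and EGFP were common to both groups. The labels name neither the promoter that drives Cre nor the number of animals, and they describe no sorting of infected cells. Each genotype had 3 pull-down libraries with an m1A antibody, each set against its own input. Nothing states that the numbered libraries were separate animals, so each p-value reflects variation among libraries alone, possibly technical. The comparison asks whether m1A differs between bulk tissue given Cre to cut Tet1 and tissue given EGFP alone. TET1 is an enzyme known for oxidising methylated cytosine. Peak lists hold no expression values, so the loss of Tet1 itself could not be checked in them.

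The peak caller used 459332 to 1097292 tags in the control pull-downs and 1235247 to 2508102 in the KO pull-downs, so every KO library was deeper. Control 1 was the shallowest and was called with no duplicate tags removed, while KO 2 was the deepest and had the longest list, with 6947 peaks against 3004 to 3782 in the other lists. Both stood apart from the rest, and the family's main counts are also given without KO 2, or without both where that matters. Of 10 markers of medium spiny neurons, the striatal projection cells, 8 had a peak in some library, and Ppp1r1b, Adcy5 and Pde10a had one in all 6; Drd1 and Tac1 had none. Peaks were also present in 5 of 6 oligodendrocyte, 3 of 6 astrocyte, 2 of 6 microglial, 2 of 3 endothelial, 3 of 4 cortical neuron and 1 of 3 choroid plexus markers. Control 1 held a peak in 1 of the 6 oligodendrocyte markers and the other libraries in 4 or 5, and the part of cell makeup in the results was not tested. In bulk tissue fewer cells of a type and less RNA per cell cannot be told apart, and a peak list gives no transcript level. Where a library made no call, m1A may still be present below what its depth could detect.

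Peaks lay mainly in 2 of the 9 genes. Chd3 held 14 regions and Chd4 held 5, which together made 61.3% of the CHD regions. Chd9 held 3, Chd1, Chd5 and Chd7 held 2 each, and Chd2, Chd6 and Chd8 held 1 each. Of the 31 regions, 24 (77.4%) were called in a single library, beside 69.0% of all regions in the series. KO 2 alone supplied 16 of these 24, KO 1 supplied 2, KO 3 none, and controls 1, 2 and 3 supplied 1, 2 and 3. Without KO 2, 8 of 15 CHD regions (53.3%) were called in a single library, beside 61.9% of all regions, so the order of the family and the series turned. Chd3 and Chd4 then held 9 of the 15 regions, and Chd6 and Chd8 had none. Without control 1 and KO 2 together, 6 genes and 14 regions remained. The other 7 regions were called in 3 or more libraries and lay in Chd3 (3 regions), Chd4 (2), Chd5 (1) and Chd9 (1).

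**Figure D1:**
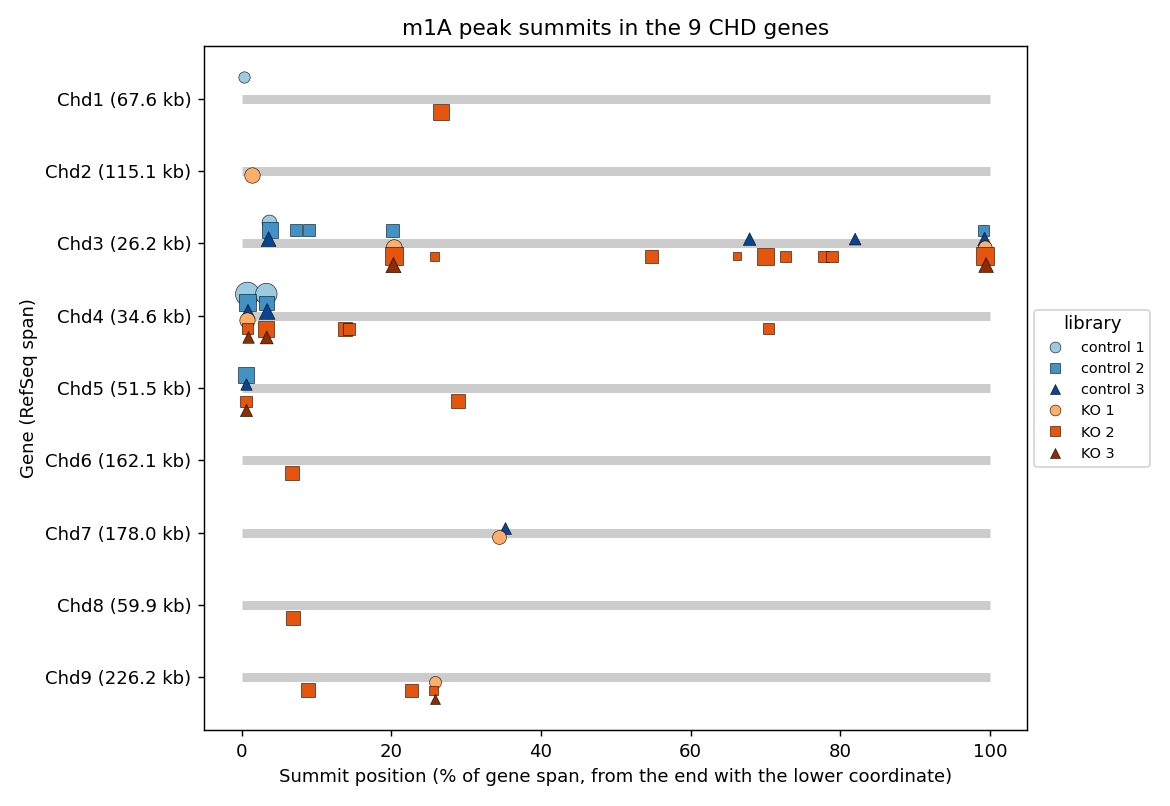
Position of every peak summit in the 9 CHD genes, as a percentage of the gene span from the end with the lower coordinate (x axis), with genes and their spans on the y axis. Colour and symbol give the library, and symbol area grows with fold enrichment; Chd3 carried 14 regions along its span, whereas the shared regions of Chd4 and Chd5 lay at the 5′ end.

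By library, CHD genes held 4, 8 and 8 regions in controls 1, 2 and 3, and 6, 22 and 6 in KO 1, 2 and 3. KO libraries had 11.3 ± 9.24 regions (SD, n = 3) and control libraries 6.67 ± 2.31, and the groups overlapped. Without KO 2 the difference of 4.67 became −0.667, and with lists of equal length it was −1. The number of CHD genes with a peak was 3, 3 and 4 in controls 1, 2 and 3 and 5, 7 and 4 in KO 1, 2 and 3. As a share of all peaks, CHD peaks made up 0.126% to 0.266% of the control lists and 0.159% to 0.317% of the KO lists, again with overlap. Fold enrichment is the deposited ratio of pull-down tags at the summit to the local background, with the matching input as control. It had a median of 7.08 over the 54 CHD peaks. Its median over the CHD peaks of each library was 13.1, 7.07 and 6.60 in controls 1, 2 and 3 and 8.21, 6.21 and 6.01 in KO 1, 2 and 3. The medians of whole lists were 4.65 in control 1 and 7.16 to 7.53 in the others, so the CHD peaks of control 1 stood high in their list. Because background and depth differ by library, these values describe peaks within a list and were not tested between genotypes.

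**Figure D2:**
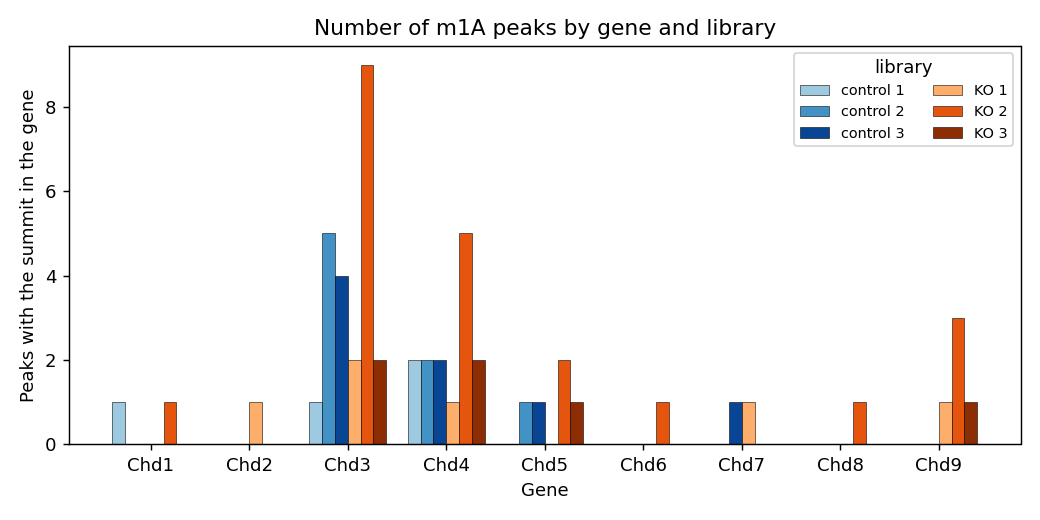
Number of peaks (y axis) with the summit in each CHD gene (x axis) in each of the 6 libraries, with 1 bar per library and no bar where no peak was called. The highest bar is KO 2 in Chd3 with 9 peaks, and Chd9 has bars in the 3 KO libraries alone.

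Chd4, the main motor of NuRD in many cell types, carried the 1 of 31 CHD regions called in all 6 libraries, beside 2.96% of all regions. The promoter table places Chd4 on the plus strand of chromosome 6 with a pair of RefSeq starts 182 bases apart. The first CHD region of Chd4, site 1, spanned chr6:125096057-125096423. Its summits lay 268 to 323 bases past the first start and 86 to 141 bases past the second, within 55 bases of each other. Fold enrichment, as the authors' lists give it, was 21.7, 10.6 and 7.35 in controls 1, 2 and 3. In KO 1, 2 and 3 it was 9.02, 4.70 and 5.13. Control 1 was highest and KO 2 lowest, and the groups overlapped because KO 1 lay above control 3. Pileup, the number of tags over the summit, was 35, 34 and 25 in the controls and 20, 15 and 16 in the KO libraries. The control 1 value comes from a list with no duplicate tags removed. The pileups did not overlap between genotypes, with or without control 1. The control pull-downs were the shallower ones, and the part of depth and of duplicate removal in the pileups was not tested. Of the 402 regions called in all 6 libraries, 2.49% had non-overlapping pileups that were lower in KO and 19.7% had non-overlapping pileups that were higher in KO. Within their own lists, the control 1 peak ranked above 98.0% of peaks and the KO 2 peak above 11.4%.

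The region was among the weaker ones of KO 2, whose peak dropped out when only peaks with −log10 q from 5 upwards were kept. It also dropped out when every list was shortened to the same number of peaks. Either step left 5 libraries. The peaks of KO 1, 2 and 3 and of control 1 began before the second start, and those of controls 2 and 3 began at 125096207, after it.

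The second Chd4 region, site 2, covered chr6:125097020-125097279, and 597 bases separated it from site 1. It was called in all 3 controls with fold enrichments of 17.7, 7.83 and 9.55, and in KO 2 and KO 3 with 9.81 and 6.37. KO 1 had no call there. Fold enrichment overlapped between genotypes. Pileup was 27, 39 and 36 in controls 1, 2 and 3 and 19 and 18 in KO 2 and KO 3, lower in both KO libraries that called the site. How often regions show this pattern was computed only for those called in all 6 libraries, so no share stands beside it. The region shares bases with the annotated hairpin of the microRNA gene Mir7045, at chr6:125097024-125097086 on the plus strand. The 5 peaks covered 34 (KO 3) to 63 (control 2) of the hairpin's 63 bases, and their summits lay 38 to 78 bases past its end. Because the hairpin lies inside the Chd4 span, tags from the host transcript and from the hairpin cannot be told apart in a peak list.

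Sequences from RefSeq on GRCm38.p6 are shown for the 5′ part of Chd4, since its most widely called regions begin there. The hairpin is printed with its mature arms in capitals, and each mature arm with its seed (bases 2 to 8) in capitals. The arms have different seeds, and 69.8% of the hairpin's bases are G or C.
Mir7045 hairpin: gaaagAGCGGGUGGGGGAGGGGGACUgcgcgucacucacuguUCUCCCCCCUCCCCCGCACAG
mmu-miR-7045-5p: aGCGGGUGggggagggggacu
mmu-miR-7045-3p: uCUCCCCCcucccccgcacag
The promoter of Chd4 is printed as the 250 bases before its first start, chr6:125095731-125095980 on the plus strand, with each copy of TATTATGGG in capitals.
Chd4 promoter: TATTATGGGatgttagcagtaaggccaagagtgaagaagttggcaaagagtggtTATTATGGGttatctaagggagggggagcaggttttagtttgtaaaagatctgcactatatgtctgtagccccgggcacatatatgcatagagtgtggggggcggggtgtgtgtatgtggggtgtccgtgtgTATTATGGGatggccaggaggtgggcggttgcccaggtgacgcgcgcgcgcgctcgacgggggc
The motif TATTATGGG, picked after the sequence had been read, occurs 3 times in this window when both strands are searched. Of 32851 such windows of 250 bases from 27025 genes, 0.0822% held it, and the only windows with 2 or more copies were the 2 overlapping ones of Chd4. The GC box GGGCGG, searched on both strands, occurs 2 times here and is in 32.7% of all windows. These matches describe the sequence and are not evidence of a bound factor.

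**Figure D3:**
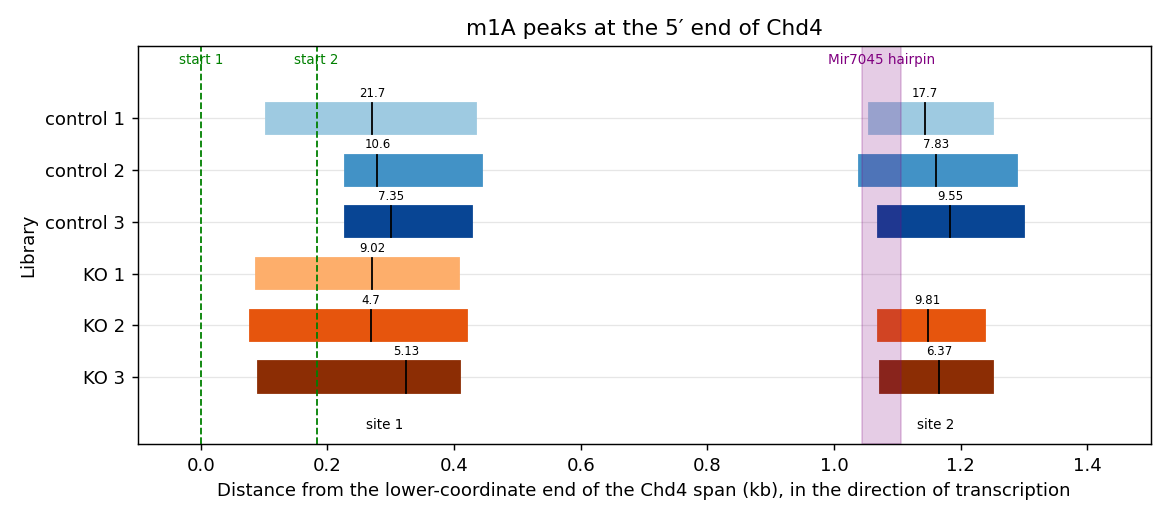
Peaks at the 5′ end of Chd4 by library (y axis), as boxes from peak start to peak end with a black line at the summit and the fold enrichment above it, against distance in kb from the lower-coordinate end of the span (x axis). Dashed lines mark the RefSeq starts and the shaded band the Mir7045 hairpin; site 1 is present in 6 libraries and site 2 in 5.

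The other 3 Chd4 regions were called in KO 2 alone, with fold enrichments of 4.62 to 7.05 and pileups of 18 to 23. In all, Chd4 had 2 peaks in each control and 1, 5 and 2 in KO 1, 2 and 3. KO libraries averaged 2.67 ± 2.08 peaks (SD, n = 3) and controls 2 ± 0, a difference of 0.667 with an exact two-sided permutation p of 1. The sign turned without KO 2 (−0.5).

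Chd3, the other widely expressed NuRD motor, held the most regions for its length. Its span of 26.2 kb, chr11:69343273-69369499, carried 14 regions, or 5.34 per 10 kb. Of the 5746 protein-coding genes with a peak, 0.627% (36 genes) held at least 14 regions. Their median span was 827.3 kb, and 1 of the 36, Chd3 itself, was no longer than 26.2 kb. KO 2 alone gave 7 of the 14; without KO 2, Chd3 kept 7 regions and 1.26% of protein-coding genes with a peak held as many. The tables used here give no strand for Chd3, so its sites are placed from the end with the lower coordinate.

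Chd3 had 1, 5 and 4 peaks in controls 1, 2 and 3 and 2, 9 and 2 in KO 1, 2 and 3. The KO mean was 4.33 ± 4.04 (SD, n = 3) and the control mean 3.33 ± 2.08, a difference of 1 with an exact two-sided permutation p of 0.8. The groups overlapped. The sign turned without KO 2 (−1.33) and without control 1 (−0.167), so the number of peaks gave no stable direction. The 3 sites called in 3 or more libraries each showed a different pattern.

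Site 1 of Chd3, chr11:69344084-69344538, was called in the 3 control libraries and in no KO library. It was the 1 of 31 CHD regions called so, beside 0.796% of all regions. Its summits lay 950 to 1012 bases inside the lower-coordinate end. Fold enrichment was 8.48, 9.78 and 8.45 in controls 1, 2 and 3, with pileups of 16, 39 and 31. The values were close to each other, and in their own lists these peaks ranked above 86.7%, 77.4% and 67.3% of peaks. The nearest KO peaks lay 2868, 2866 and 2883 bases away in KO 1, 2 and 3. They were outside the Chd3 span, below its lower-coordinate end. Within Chd3 the nearest KO peaks were at site 4. The control-only call was present under every alternative tried, including lists of equal length and stricter limits on q or fold enrichment. These limits and shorter lists cannot add a KO peak, so they tested only whether the control peaks stayed. Leaving out any library kept the call too, but that step cannot remove such a call. The KO pull-downs were the deeper ones, yet their lists hold no tag counts outside peaks, so the size of the difference cannot be given.

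Site 4 of Chd3, chr11:69348339-69348731, followed the opposite pattern. KO 1, 2 and 3 called it with fold enrichments of 9.85, 12.4 and 8.80, and among the controls only control 2 called it, with 6.31. Every KO value lay above that 1 control value. Pileup was 35, 55 and 34 in KO 1, 2 and 3 and 28 in control 2. The summits of the 4 libraries fell within 59 bases. Without control 2 the site became KO-only, which raised the number of KO-only CHD regions from 1 to 2. Leaving out a control makes that call easier for any region, and the share over all regions was not computed for that setting. Control 2 called sites 1 and 4 together, with 9.78 and 6.31, and no other library called both.

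Site 14 of Chd3, chr11:69369043-69369500, lay 138 to 196 bases from the higher-coordinate end of the span. It was called in KO 1, 2 and 3 with fold enrichments of 7.13, 12.6 and 8.30 and in controls 2 and 3 with 4.61 and 7.12. KO 1 and control 3 were almost equal, KO 2 was highest, and control 1 had no call. Pileup was highest in KO 2, at 109, and 32 to 54 in the other 4. The long non-coding RNA gene Gm32483 overlaps this end, and reads from it and from Chd3 cannot be told apart here. When summits shared with another gene were left out, this site was lost from Chd3.

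**Figure D4:**
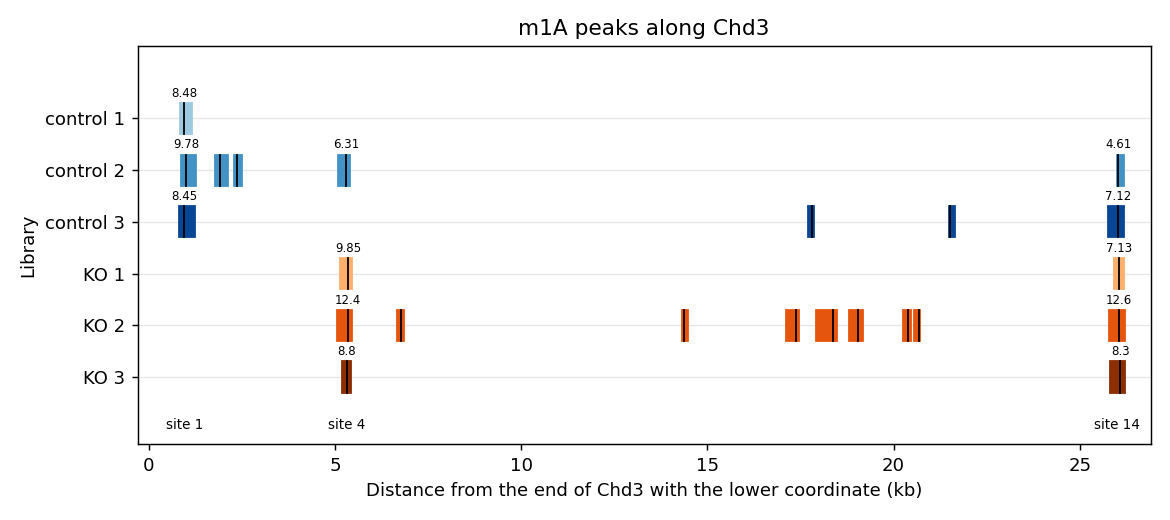
Peaks along Chd3 in each library (y axis), as boxes with a black line at the summit, against distance in kb from the lower-coordinate end of the gene (x axis); numbers give the fold enrichment at sites 1, 4 and 14. Site 1 has boxes in the 3 control rows alone, site 4 in the 3 KO rows and control 2, and site 14 in 5 rows.

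The 11 remaining Chd3 regions were called in 1 library each. KO 2 gave 7, with fold enrichments of 2.42 to 10.3 and pileups of 26 to 41. Control 2 gave 2 (fold enrichments 5.53 and 5.56) and control 3 gave 2 (5.35 and 6.08), while control 1, KO 1 and KO 3 gave none. Of the 7 KO 2 regions, 6 had summits between 14.4 and 20.7 kb from the lower-coordinate end. By summed difference in the number of peaks over the 6 libraries, the protein-coding genes nearest to Chd3 were Arid1b, a subunit of the SWI/SNF remodeller (5 peaks apart), Safb (6) and Fnbp1 (6).

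Chd5, the neuronal NuRD motor, had its shared region at the 5′ end like Chd4. The region lay at chr4:152338840-152339174, with summits 303 to 316 bases past the first RefSeq start on the plus strand. Controls 2 and 3 called it with fold enrichments of 10.2 and 5.04, and KO 2 and KO 3 with 4.70 and 5.65. The values overlapped, pileups were low at 10 to 17, and control 1 and KO 1 had no call. With peaks of −log10 q below 5 left out, control 2 and KO 3 kept it. A second region, 14.9 kb from the lower-coordinate end, was called in KO 2 alone with a fold enrichment of 7.13. The 250 bases before the first start, chr4:152338401-152338650, are shown beside those of Chd4 because both genes had summits within 323 bases of a start.
Chd5 promoter: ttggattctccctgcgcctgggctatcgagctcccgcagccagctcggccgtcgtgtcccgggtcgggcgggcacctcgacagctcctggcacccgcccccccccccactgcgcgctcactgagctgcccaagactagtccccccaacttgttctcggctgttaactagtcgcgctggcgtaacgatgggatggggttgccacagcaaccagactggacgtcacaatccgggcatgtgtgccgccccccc
G and C made up 67.2% of this window and 54% of the Chd4 window, with a median of 52.4% over all windows. The Chd5 window holds the GC box GGGCGG 3 times and TATTATGGG 0 times.

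Of the 7 regions called in 3 or more libraries, 3 had their summits within 500 bases of a span end (42.9%): site 1 of Chd4, site 1 of Chd5 and site 14 of Chd3. Over all protein-coding genes the corresponding share was 33.5% of 2259 regions. For regions called in any number of libraries the shares were 12.9% of 31 and 18.4% of 12085. These shares are descriptions and were not tested against each other.

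**Figure D5:**
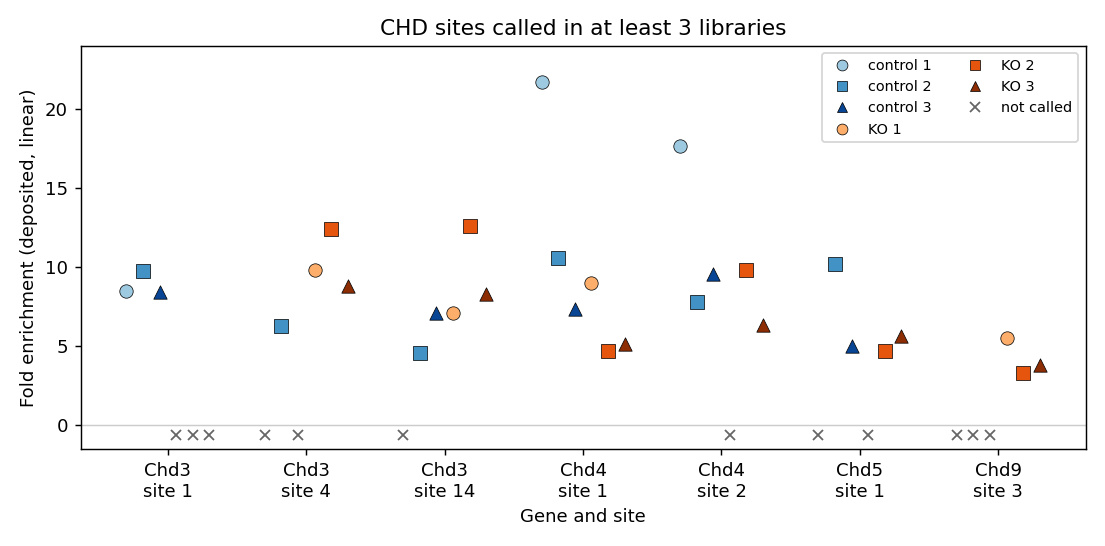
Fold enrichment (y axis, the deposited linear value) at the 7 CHD regions called in at least 3 libraries (x axis), with 1 symbol per calling library and a grey cross below 0 for a library with no call. The crosses fall on the KO libraries at site 1 of Chd3 and on the controls at site 3 of Chd9, and values of both genotypes overlap at the Chd4 and Chd5 sites.

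Chd9, a member of the subfamily of Chd6 to Chd8, was the CHD gene whose number of peaks did not overlap between genotypes. It had 0 peaks in each control and 1, 3 and 1 in KO 1, 2 and 3, a difference of 1.67. The exact two-sided permutation p was 0.1, and a design of 3 against 3 libraries cannot give a lower one. Adjusted by Benjamini-Hochberg over the 6658 genes with a peak, this exact permutation p was 1. Over all genes with a peak, 2.42% had non-overlapping numbers that were higher in KO and 0.946% lower, beside 1 and 0 of the 9 CHD genes. As a gene called in all 3 KO and no control libraries, Chd9 was 1 of 9, against 1.74% of genes, and 0 of 9 were called in the controls alone, against 0.856%.

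The call of Chd9 in all 3 KO libraries rested on site 3, chr8:90886461-90887068, in an interior part of the gene. Its summits lay 57691 to 58154 bases past the first RefSeq start, at about 25.8% of the span, and before the second start. It was the 1 of 31 CHD regions called in all KO and no control libraries, beside 1.41% of all regions. Fold enrichment was 5.54, 3.30 and 3.80 in KO 1, 2 and 3, low for their lists, where these peaks ranked above 25.7%, 2.75% and 4.87% of peaks. Pileup was 42, 42 and 33 in KO 1, 2 and 3, among the higher values in the family. The 3 summits were spread over 463 bases, against 13 to 62 at the other 6 sites called in 3 or more libraries. At a fold enrichment of at least 4 only KO 1 kept the site, with lists of equal length KO 1 and KO 3 kept it, and when peaks were merged by summits within 100 bases it separated into 3 regions of 1 library each. The nearest control peak was 206744 bases away (control 3). The other 2 Chd9 regions were called in KO 2 alone, with fold enrichments of 7.53 (pileup 9) at chr8:90848374-90848539 and 7.18 (pileup 20) at chr8:90879523-90879693. Without KO 2, Chd9 had 1 peak in each remaining KO library and 0 in each control.

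Chd6, Chd7 and Chd8 had no region called in more than 1 library. Chd6 and Chd8, which the promoter table places on the minus strand, had 1 region each in KO 2, at chr2:160957663-160957907 and chr14:52202155-52202509. Fold enrichment was 8.47 for Chd6 and 6.62 for Chd8, with a pileup of 12 in both. Both summits lay towards the 3′ end, 10.8 kb and 4.13 kb from it. Chd7 had a region in KO 1 at chr4:8751558-8751720 (fold enrichment 7.40, pileup 8) and another in control 3 at chr4:8753095-8753264 (5.45, pileup 5). They lay at 34.4% and 35.2% of the span and did not overlap.

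Chd1 and Chd2, the members tied to transcribed chromatin, were called as sparsely. Chd1 had a region in control 1 (fold enrichment 4.92, pileup 5) 198 bases from its lower-coordinate end, where the non-coding gene 5830433I10Rik overlaps, and another in KO 2 at chr17:15722886-15723123 (10.2, pileup 19). Chd2 had 1 region, in KO 1 at chr7:73428160-73428388, with a fold enrichment of 9.11 and a pileup of 15, 1.64 kb from its lower-coordinate end. Chd2, Chd6, Chd8 and Chd9 were called in KO libraries alone, 4 of 9 genes, beside 34.0% of all genes with a peak. Chd6 and Chd8 entered this count through KO 2, and without that library the count was 2 of the 7 remaining CHD genes, beside 20.2% of all genes with a peak.

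Over the 9 genes, exact permutation p-values for the number of peaks were 0.1 for Chd9, 0.8 for Chd3 and 1 for the others. Every adjusted value was 1, and 0 genes of the 6658 reached an unadjusted p under 0.05, which this design cannot give. Chd3 and Chd4 had a peak in all 6 libraries, 2 of 9 genes against 8.11% of genes with a peak.

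Partners of the CHD proteins and other chromatin regulators were counted in the same way. Of 12 NuRD partners, such as deacetylases and MTA and MBD subunits, 8 had a peak and 0 had one in all 6 libraries; Hdac2, Mta1, Gatad2a and Gatad2b had none. Peaks were present in 5 of 11 ISWI genes, 9 of 18 genes of the INO80, SRCAP and p400 complexes, 18 of 28 SWI/SNF genes and 11 of 15 genes of the KMT2 methyltransferase complexes, where 26.2% of all protein-coding genes held one. Without KO 2 the counts were 7 NuRD partners, 4 ISWI, 6 INO80, SRCAP and p400, 14 SWI/SNF and 9 KMT2 genes, beside 22.1% of protein-coding genes. Among these lists, Smarcd1 (fold enrichments 4.35 to 13.8) and Arid1b (4.95 to 14.4), both SWI/SNF subunits, had a peak in all 6 libraries. In these 5 lists, 0 genes were called in the 3 KO libraries alone and 0 in the 3 control libraries alone, where the shares among all genes with a peak were 1.74% and 0.856%. The median span was 67.6 kb for CHD genes, 83.2 kb for ISWI genes, and 17.1 to 31.7 kb for the other 4 lists, and the difference between lists was not tested.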

How the data were processed

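Per the labels' protocols, total RNA was heated for 4 minutes at 94 °C, then split into 90% for pull-down with m1A antibody and 10% for input; libraries were made with random hexamers after rRNA removal. Tools named in the submitters' processing notes are MACS2 2.2.6, HISAT2 2.1.0 and cutadapt 2.8, with the build GRCm38. Per the file headers, each of the 6 pull-downs was called separately with its matching input as control, at q 0.01. The deposited lists give pileup, a signal of tag coverage at the summit, fold enrichment, a ratio to local background, and the −log10 of the p-value and q-value. Depth is the header's tag count, and no interval for counting error can be given for a call.

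Summits were placed in RefSeq gene spans (GRCm38.p6, without exons), leaving out summits in more than 3 genes. Peaks sharing 1 base were merged into regions. Strand came from the promoter table, which held 5 of the 9 genes (Chd4, Chd5, Chd6, Chd8 and Chd9). Numbers of peaks per gene were tested by exact permutation (two-sided, 20 assignments of libraries), for every gene with a peak, with Benjamini-Hochberg adjustment (Python 3.11.15, pandas 2.3.3). The code was tested on simulated data. All 9 genes were named; regions called in at least 3 libraries, and each gene's region of highest fold enrichment, were described. The other regions were given by gene, and members of other lists were named when called in all 6 libraries or in 1 genotype's 3 alone. The members and lists were chosen with earlier results of these data known.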

Additional observations from a re-analysis of the deposited data

How the results depend on the processing

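The count of control-only regions, the 1 in Chd3, stayed at 1 under all 14 settings tried. Settings that leave out libraries cannot remove such a call, so they are no check of it. The KO-only count of 1 went to 0 at fold enrichments of at least 4, with lists of equal length and with merging by summits. It ranged from 1 to 2 when 1 library was left out, a step that makes the call easier. The count of regions in all 6 libraries went from 1 to 0 with −log10 q from 5 upwards and with lists of equal length, to 2 without control 1 and KO 2, and ranged from 1 to 2 with 1 library left out; fewer libraries make that call easier. Genes with non-overlapping numbers went from 1 to 0 at that limit on fold enrichment and with lists of equal length. They went to 2 without control 1 and KO 2, where fewer libraries make this pattern easier too. The difference in CHD genes per library, 2, was 0.667 with lists of equal length, 1.17 without KO 2 and 1 without control 1 and KO 2; with 1 library left out it ranged from 1.17 to 2.67.

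Signs turned for 3 genes. With lists of equal length the differences in Chd3, Chd4 and Chd5 were −1, −0.667 and −0.333; without control 1 and KO 2 they were −2.5, −0.5 and −0.5. With 1 library left out they ranged from −1.33 to 2.17 for Chd3, −0.5 to 1.5 for Chd4 and −0.167 to 0.833 for Chd5, lowest without KO 2; without control 1, Chd3 gave −0.167. The cause was not tested. The number of Chd3 regions, 14, was 7 without KO 2 and 12 at either stricter threshold. The 31 CHD regions were 15 without KO 2, 30 without control 1 and 14 without both. In the same order, the 24 called in a single library were 8, 23 and 7 (53.3%, 76.7% and 50%). Over all regions these shares were 61.9%, 64.4% and 51.8%. The 4 genes called in KO alone were 2, 5 and 2, of 7, 9 and 6 CHD genes with a peak. Over all genes with a peak these shares were 20.2%, 46.3% and 30.0%. These counts of regions and genes under left-out libraries or stricter thresholds were added after seeing the data.

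Libraries with the same number were not paired by the data, with correlations of their deviations of −0.0457, −0.0102 and 0.017. With the number as a replicate block, the Chd9 difference is 1.67 by arithmetic. Its exact sign-flip p was 0.25, the smallest that 3 pairs allow. Depth differed between all KO and all control libraries, and its part in missing calls was not tested.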
